A study of Mus musculus with 6 samples.

Results

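The genes described here are 10 members of eicosanoid synthesis, chosen by name: Alox15, Alox5, Alox5ap, Ltc4s, Ptgs1, Ptgs2, Ptges, Ptgis, Tbxas1 and Hpgds. They are 10 of the 55538 features of a single-cell count table, of which 24015 had a UMI (unique molecular identifier, 1 captured transcript). The cells came from the peritoneum of adult C57BL/6 mice (C57BL/6J in the study's methods) that were MerTK +/+ or MerTK -/-, MerTK being a receptor by which macrophages take up dying cells. After lavage and 1 h of adherence they received a media change (control) or human Jurkat T cells made apoptotic by UV light, for 2 h or 6 h. Each of the 6 libraries pooled 3 mice, so each genotype and time had 1 library. Barcodes carry a library number that no label ties to a condition. All values are therefore pooled over libraries or given by library number, and none is given by genotype or time.

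Of 7760 barcodes, 7665 were kept, from libraries of 4234786 to 10287079 UMIs. Macrophages were cells with at least 2 UMIs of Csf1r, Adgre1 and Fcer1g together, at most 2 of Cd79a and Cd79b, and at most 1 of Cd3d, Cd3e and Nkg7. There were 2773, between 225 and 690 in each library. B cells, with at least 4 UMIs of Cd79a and Cd79b, numbered 3101, and T/NK cells, with at least 2 UMIs of Cd3d, Cd3e and Nkg7, numbered 667. The 153 cells that met both lymphocyte rules are in both counts. A further 1277 cells met no rule, 514 of them in library 6. Median depth was 4426 UMIs in macrophages, 5561 in B cells, 3206 in T/NK cells and 2735 in cells meeting no rule. All 12 macrophage markers were found in the macrophages, but Csf1r, Adgre1 and Fcer1g among them are the genes of the rule. Mertk had 17.4 to 33.9 CPM (a gene's UMIs scaled by all UMIs of the cells) in the macrophages of the 6 libraries, which checks no label, since the libraries carry none. Libraries shared 28 barcode sequences, in 56 barcodes.

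Eicosanoids are short-lived lipid signals made from arachidonic acid, which phospholipases free from membranes. Lipoxygenases open the branches to leukotrienes and to hydroxylated fatty acids from which lipoxins arise. Cyclooxygenases make prostaglandin H, and terminal synthases turn it into prostaglandin E, prostacyclin, thromboxane or prostaglandin D. Resident peritoneal macrophages are a classical source of these lipids, and the 12/15-lipoxygenase encoded by Alox15 is a known feature of them.

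Upstream sequence is shown for the cyclooxygenase genes, because both enzymes carry out the same reaction while their transcripts were spread differently over the macrophages below. Each run is 250 bases ending at the base before the start, 5′ to 3′ on the plus strand of GRCm38.p6, from RefSeq, with a searched motif in capitals.
Ptgs1 (chr2:36230176-36230425): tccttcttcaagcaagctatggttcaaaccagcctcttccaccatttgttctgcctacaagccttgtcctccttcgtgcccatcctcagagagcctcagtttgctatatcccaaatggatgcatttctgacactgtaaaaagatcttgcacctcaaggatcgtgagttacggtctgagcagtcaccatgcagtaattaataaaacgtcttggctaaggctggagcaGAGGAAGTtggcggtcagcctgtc
Ptgs2 (chr1:150099781-150100030): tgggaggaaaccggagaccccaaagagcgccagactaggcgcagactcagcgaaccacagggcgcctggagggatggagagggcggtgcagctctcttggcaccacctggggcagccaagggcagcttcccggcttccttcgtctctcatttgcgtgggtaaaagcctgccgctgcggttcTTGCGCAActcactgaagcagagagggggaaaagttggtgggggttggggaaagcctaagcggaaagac
In Ptgs1 the capitals are the PU.1 letters GAGGAAGT, 24 to 17 bases before the start. In Ptgs2 they are the C/EBP letters TTGCNNAA, 69 to 62 bases before it, which read the same on both strands. RefSeq held a promoter for 7 of the 10 members (Alox5, Ltc4s, Ptgs1, Ptgs2, Ptges, Tbxas1 and Hpgds). On both strands of these windows, Hpgds also held the C/EBP and the PU.1 letters. Tbxas1 held the AP-1 letters TGANTCA and 2 overlapping TATA box matches (TATAAA), 11 to 6 and 13 to 8 bases before the start. The windows of Tbxas1 (chr6:38918736-38918985) and Ptges (chr2:30903298-30903547) lie within the gene spans given below, so they precede internal RefSeq starts. None of the 7 held the cAMP response element TGACGTCA, the GATA letters AGATAAG or the NF-kB motif. Sequence outside the 250 bases was not searched. Of 32851 promoters of the same length, 9.56% held the C/EBP letters, 2.44% PU.1, 6.75% AP-1, 12.4% the TATA box, 7.25% NF-kB, 1.55% the cAMP response element and 2.74% GATA. A match describes the letters only.

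All members but Hpgds had their highest level in macrophages, and Hpgds had its lowest there. Of the lipoxygenase branch, Alox15 was at 134 CPM (128–140.2), the brackets being an exact Poisson 95% interval that covers counting error only, as do all intervals here. Alox5 was at 5.88 CPM (4.67–7.31), Alox5ap at 375 CPM (365–385) and Ltc4s at 74.0 CPM (69.6–78.7). Of the cyclooxygenases, Ptgs1 was at 88.0 CPM (83.1–93.1) and Ptgs2 at 469.8 CPM (458–481). Of the terminal synthases, Ptges was at 284 CPM (275–293), Ptgis at 80.4 CPM (75.7–85.3) and Tbxas1 at 79.6 CPM (75.0–84.5). Cells are not replicates and a condition has 1 library, so no p-value is given. Levels of different genes are not set against each other.

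In B cells the 9 genes were at 0.149 CPM (Alox5) to 10.3 CPM (Ptgs2), which was 1.3% (Ptgis) to 6.85% (Ltc4s) of the macrophage level. In T/NK cells they were at 3.54% (Ltc4s) to 14.9% (Alox5, from 3 UMIs) of it, with Ptgis at 14.5% and Ptgs1 at 10.6%. Lyz2, a lysozyme gene that lymphocytes should lack, was at 1.56% of its macrophage level in B cells and 7.11% in T/NK cells. Values of that size are read as background, and Alox5, Ptgis and Ptgs1 in T/NK cells were above it. Lymphocytes were then limited, after these values had been seen, to those with at most 1 UMI of Csf1r, Adgre1 and Fcer1g and no more of the other lymphocyte's markers than the macrophage rule allows. In the 2847 B cells left, Alox15 was at 0.114 CPM instead of 2.44 CPM, and Ptgs2 at 0.455 CPM instead of 10.3 CPM. In the 461 T/NK cells left, Alox15, Ptgs2, Alox5 and Ptgis had 0 UMIs, a count that allows up to 2.14 CPM, and Ptgs1 had 1 UMI.

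Ltc4s differed from the other macrophage members in B cells. It kept 4.38 CPM (3.45–5.47) in the limited B cells, 5.91% of its macrophage level, while Lyz2 was at 0.113% of its own. Next among the 9 was Alox5ap, with 3.01 CPM (2.26–3.94) and 0.803%. In all B cells of libraries 1 to 6, Ltc4s stood at 7.0, 3.74, 3.73, 9.56, 2.26 and 0.753 CPM. Libraries 1 and 4 were high and library 6, with 1 UMI, was low. The gene Gm26542 overlaps Ltc4s on the other strand, and whether the counting used the strand is not given in the sources used here.

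With all lymphocytes counted, the order below macrophages was cells meeting no rule, T/NK cells and B cells for Alox15, Alox5ap, Ptgs1, Ptgs2, Ptges and Tbxas1. Intervals of the first pair overlapped for Alox15 (10.9–18.2 and 5.42–11.8 CPM) and Ptgs1 (13.1–21.1 and 6.37–13.2 CPM), and did not for the other four. In the limited lymphocytes, T/NK cells and B cells had overlapping intervals for all of Alox15, Alox5ap, Ptgs1, Ptgs2, Ptges and Tbxas1. Alox5ap was at 0.714 CPM (0.0181–3.98) in those T/NK cells and 3.01 CPM (2.26–3.94) in those B cells. For Ptgis, T/NK cells (11.6 CPM, 8.32–15.9) and cells meeting no rule (9.78 CPM, 7.05–13.2) could not be ordered. For Ltc4s each neighbour overlapped in the order no rule (7.92 CPM, 5.48–11.1), B cells (5.07 CPM, 4.14–6.16) and T/NK cells (2.62 CPM, 1.20–4.97). For Alox5 the intervals of these 3 classes all overlapped. Alox5ap was seen in 70.4% of macrophages (68.6–72.1%, exact Clopper-Pearson interval) and 3.42% of B cells, or 40.0% and 0.849% with every cell thinned to 1500 UMIs. Ptgs2 was seen in 39.4% of macrophages and 1.55% of B cells, or 25.5% and 0.653% after thinning.

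**Figure D1:**
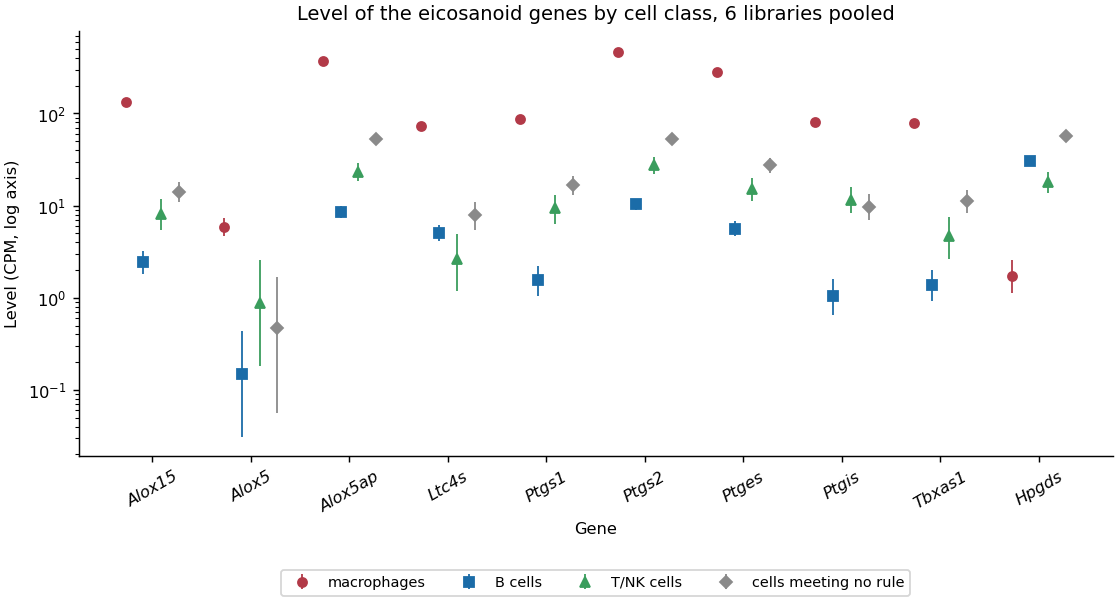
Level in CPM, on a log axis, of the 10 genes in macrophages, B cells, T/NK cells and cells meeting no rule, with the 6 libraries pooled and exact Poisson 95% intervals as bars. The macrophage symbol is the highest for 9 genes, and for Hpgds it is the lowest, at 1.74 CPM.

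Hpgds (chromosome 6, 65117293–65144908, minus strand, GRCm38) encodes the haematopoietic prostaglandin D synthase. It had 24 UMIs in all macrophages, 1.74 CPM (1.12–2.59). B cells had 615 UMIs, 30.6 CPM (28.2–33.1), and stood at 22.7, 25.9, 36.4, 25.2, 37.0 and 58.0 CPM in libraries 1 to 6. Macrophages stood at 1.15, 1.11, 0.723, 3.24, 0.770 and 2.57 CPM in the same libraries, so the B cells of each library were above the macrophages of all 6, and the B cells of library 6 were highest. T/NK cells were at 18.1 CPM (13.8–23.1), but at 4.29 CPM (1.57–9.33) when limited to those with few other markers, whereas B cells limited in that way kept 30.9 CPM (28.4–33.6). Hpgds was seen in 14.3% of B cells (13.1–15.6%) and 0.829% of macrophages (0.526–1.24%), or 3.53% and 0.260% after thinning to 1500 UMIs. Within macrophages, the 277 with an Irf4 UMI held 9 of its 24 UMIs, 6.65 against 1.21 CPM. The 9 UMIs were 5 in library 1, 3 in library 6, 1 in library 3 and 0 in the others, and the log2 ratio was 2.46 (1.09–3.75), 1.01 without library 1 and 4.17 without library 4. In these 277 cells the B cell markers summed to 152 against 18.2 CPM. The part of B cell transcripts in that difference was not tested. Gm17147 overlaps Hpgds on the other strand.

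**Figure D2:**
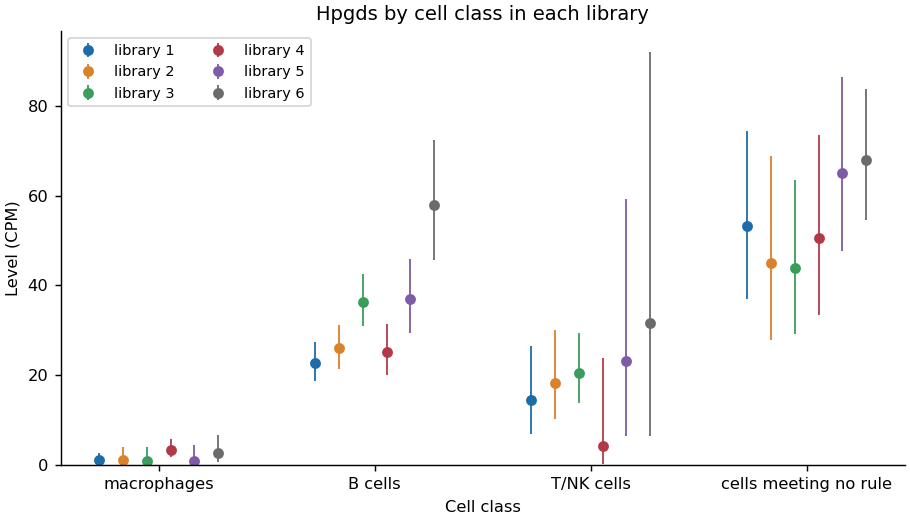
Hpgds level in CPM by cell class, with 1 point per library and exact Poisson 95% intervals. Macrophage points lie between 0.723 and 3.24 CPM and B cell points between 22.7 and 58.0 CPM, while T/NK points rest on 1 to 29 UMIs each.

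Within macrophages, the highest library was above the lowest by 1.55-fold (Ptgis) to 2.66-fold (Ptges) among the 8 members with at least 200 UMIs, and for each of the 8 the intervals of those libraries did not overlap. Ptges stood at 317, 289, 132, 344, 350.2 and 134 CPM in libraries 1 to 6, with libraries 3 and 6 low. Ptgs1 stood at 60.8, 83.9, 149, 80.9, 91.6 and 127 CPM, and libraries 3 and 6 were its highest. Tbxas1 stood at 52.0, 60.0, 106, 101, 73.9 and 113 CPM, where libraries 6, 3 and 4 were high with overlapping intervals. Libraries 3 and 6 also had the most Irf4-positive macrophages for their size, 47 of 225 and 121 of 517, where the others had 16 to 38 of 325 to 690. Among Irf4-negative macrophages alone, Ptges stood at 331, 303, 165, 361, 365 and 164 CPM in libraries 1 to 6. Ptgs1 stood at 60.8, 85.8, 153, 80.3, 95.5 and 141 CPM in the same cells. The part of Irf4-positive cells in the differences between libraries was not tested.

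**Figure D3:**
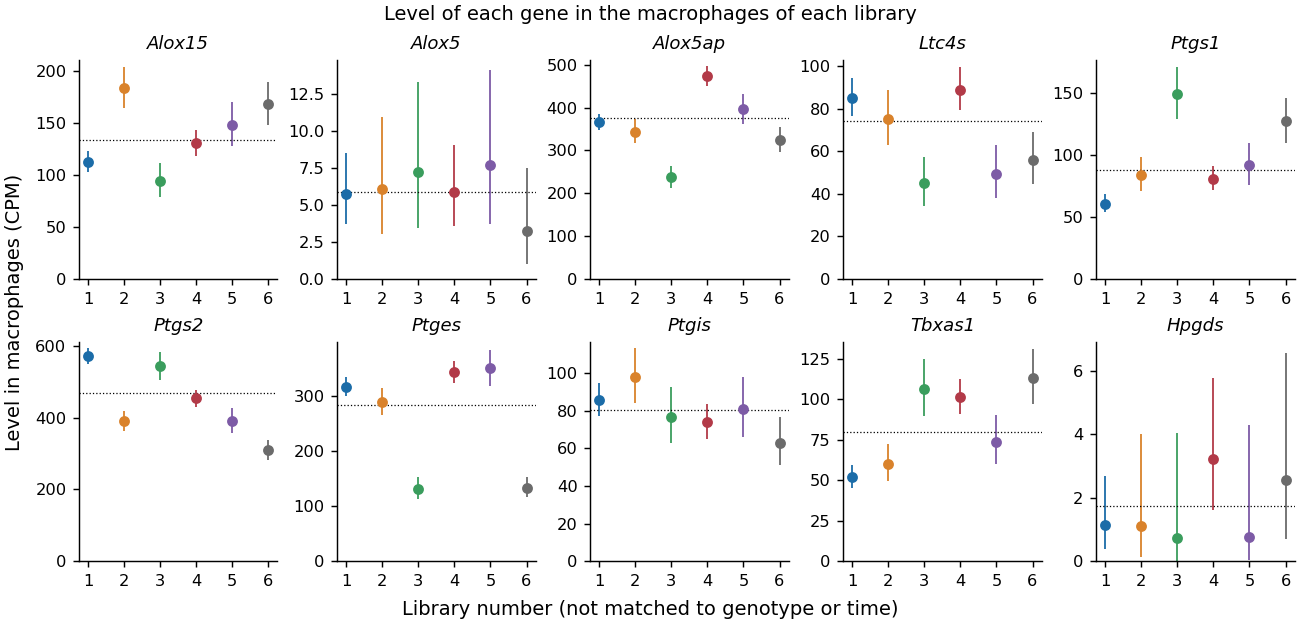
Level in CPM of each gene in the macrophages of libraries 1 to 6, with exact Poisson 95% intervals and the pooled level as a line. Ptges is low in libraries 3 and 6 (132 and 134 CPM), where Ptgs1 is high (149 and 127 CPM).

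The macrophages were split in 4 ways by UMIs of another gene. Gata6, the transcription factor of large peritoneal macrophages, had at least 1 UMI in 657 cells. Tnf, which encodes an inflammatory cytokine, had at least 2 UMIs in 260. Folr2, a folate receptor gene, had at least 1 UMI in 134, and Irf4, a transcription factor of small peritoneal macrophages, at least 1 in 277. Positive cells were deeper by Gata6 (median 5542 against 4134.5 UMIs) and by Tnf (6297.5 against 4304 UMIs), and close in depth by Folr2 (4417 against 4428) and Irf4 (4182 against 4488). A gene was past 2-fold where the log2 ratio of CPM, positive over negative with 1 CPM added, was at least 1 or at most -1. It needed 5 CPM over macrophages, which 9 of the 10 members and 8709 features had, and Hpgds did not.

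By Gata6, 0 of 9 members were past 2-fold, where 0.333% of features were higher and 2.86% lower. By Tnf, 1 was higher (Ptgs2) and 0 were lower, where 0.907% of features were higher and 3.35% lower. By Folr2, 2 were higher (Ltc4s and Tbxas1) and 3 lower (Alox15, Ptgs2 and Ptgis), where 5.3% of features were higher and 4.56% lower. By Irf4, 0 were higher and 4 lower (Alox15, Ptgs2, Ptges and Ptgis), where 5.28% of features were higher and 5.42% lower. The median log2 ratio of the 9 members was 0.34 by Gata6, 0.18 by Tnf, 0.40 by Folr2 and -0.72 by Irf4, beside -0.05, -0.20, 0.21 and 0.04 over all features. Of these 36 ratios, 8 were above 0 in each of the 6 libraries, 9 were below 0 in each, and 19 had both directions. When Fcer1g was not counted in the macrophage rule, 110 Irf4-positive cells were left and 1 member, Ptges, was past 2-fold lower.

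**Figure D4:**
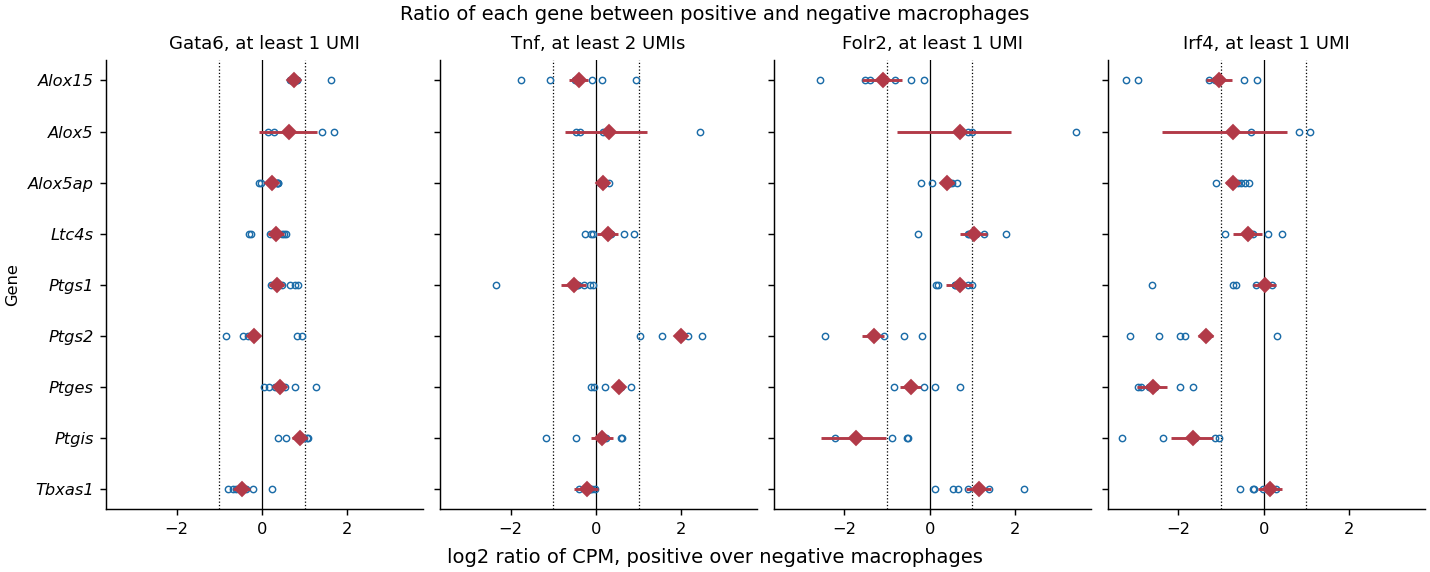
log2 ratio of CPM, positive over negative macrophages, of 9 genes in the 4 splits. Filled symbols are the pooled ratio with its exact conditional 95% interval, open circles are libraries taken singly where both groups had a UMI, and dotted lines mark 2-fold. Ptgs2 lies at 1.98 by Tnf and Ptges at -2.60 by Irf4, with all libraries on 1 side of 0.

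Alox15 (chromosome 11, 70344152–70352031, minus strand, GRCm38 with GENCODE vM21, as for the genes below) encodes the 12/15-lipoxygenase. Its macrophage level was 112, 183, 94.0, 130.4, 148 and 168 CPM in libraries 1 to 6, lowest in library 3. Gata6-positive macrophages had 156, 244, 204, 179.9, 200.3 and 269 CPM, and Gata6-negative ones 88.1, 155, 66.2, 111, 125 and 152 CPM. The lowest positive library was just above the highest negative one. Pooled, these were 188 against 112 CPM, a log2 ratio of 0.75 (0.62–0.89). By Folr2, Alox15 had 64.1 against 137 CPM, a log2 ratio of -1.10 (-1.58 to -0.65) that rested on 41 UMIs in positive cells, was below 0 in 6 of 6 libraries, and was -0.82 without library 4 and -0.98 without library 2. By Irf4 it had 68.8 against 141 CPM, a log2 ratio of -1.04 (-1.35 to -0.73), below 0 in 6 of 6 libraries, with -0.74 without library 3 and -0.87 without library 2. By Tnf the ratio was -0.40 (-0.63 to -0.18) and the libraries went both ways.

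Alox5 (chromosome 6, 116410077–116461178, minus strand) encodes the 5-lipoxygenase that starts leukotriene synthesis. It had 81 UMIs in all macrophages, 3.21 to 7.70 CPM by library with overlapping intervals, and the intervals of its 4 ratios held 0. Alox5ap (chromosome 5, 149264767–149288153, plus strand) encodes the protein that presents arachidonic acid to 5-lipoxygenase. It stood at 366, 344, 237, 473, 396 and 325 CPM in libraries 1 to 6, with library 4 high and library 3 low. By Irf4 it had 237 against 390.0 CPM, a log2 ratio of -0.72 (-0.89 to -0.56), below 0 in 6 of 6 libraries and short of 2-fold. Its other ratios were 0.23 (0.15–0.32) by Gata6, 0.18 (0.06–0.29) by Tnf and 0.40 (0.23–0.57) by Folr2.

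Ltc4s (chromosome 11, 50236461–50238616, minus strand) encodes leukotriene C4 synthase, which joins glutathione to leukotriene A4. Its macrophage level was 85.2, 75.0, 44.8, 88.9, 49.3 and 55.9 CPM in libraries 1 to 6, with libraries 3, 5 and 6 below the others. Folr2-positive macrophages had 70.8, 157, 137, 192, 89.6 and 99.4 CPM, from 5 to 56 UMIs a library, and Folr2-negative ones had 85.5, 73.6, 39.7, 79.2, 47.1 and 53.2 CPM. The positive value was higher in 5 of 6 libraries, library 1 being the exception. The pooled log2 ratio was 1.03 (0.70–1.34), 0.61 without library 4 and 0.97 without library 3. It was 0.64 with classes set after thinning and 0.93 with Fcer1g not counted, both short of 2-fold. By Gata6 (0.32), Tnf (0.28) and Irf4 (-0.37) the libraries went both ways.

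Ptgs2 (chromosome 1, 150100031–150108227, plus strand) encodes the inducible cyclooxygenase. It stood at 572, 390.2, 544, 454, 391 and 310.2 CPM in the macrophages of libraries 1 to 6, lowest in library 6. Tnf-positive macrophages had 1586, 1154, 962, 1384, 1019 and 1386 CPM, and Tnf-negative ones 395, 285, 467, 309, 349.5 and 248 CPM. The groups did not overlap, and library 3 had the smallest gap. Pooled, 1361 against 344 CPM gave a log2 ratio of 1.98 (1.91–2.06), rank 16 from the highest of 8709 features. With every cell thinned to 1500 UMIs, Ptgs2 was at 360.0 CPM (341–380.1) in cells with 0 Tnf UMIs, 939 CPM (831–1056) with 1 and 1494 CPM (1287–1725) with 2 or more.

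By Folr2, Ptgs2 had 194 against 483 CPM, a log2 ratio of -1.32 (-1.59 to -1.06). Folr2-positive cells stood at 378, 188, 0, 192, 74.7 and 276 CPM in libraries 1 to 6, each below the Folr2-negative cells of its own library (576, 394, 574, 479, 408 and 312 CPM). Library 3 had 0 UMIs in 12 Folr2-positive cells. With classes set after thinning the ratio was -0.20. Irf4-positive macrophages stood at 238, 114, 123, 553, 46.7 and 99.3 CPM and Irf4-negative ones at 593, 406, 673, 448, 409 and 389 CPM, so 5 libraries were lower and library 4 was higher. The pooled log2 ratio was -1.36 (-1.54 to -1.18), and -1.95 without library 4. By Gata6 it was -0.18 (-0.26 to -0.10), above 0 in 2 libraries and below 0 in 4.

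Ptgs1 (chromosome 2, 36230426–36252272, plus strand) encodes the constitutive cyclooxygenase. By Tnf it had 63.9 against 91.4 CPM, a log2 ratio of -0.52 (-0.81 to -0.23), below 0 in 6 of 6 libraries. By Folr2 it had 139 against 85.5 CPM, a log2 ratio of 0.70 (0.37–1.01), above 0 in 6 of 6. By Gata6 the ratio was 0.35 (0.17–0.52), above 0 in 6 of 6. By Irf4 the pooled ratio was 0.03 (-0.26 to 0.30), but 5 of 6 libraries were below 0, with a library median of -0.41. None of the 4 pooled ratios was past 2-fold. In each of the 4 splits the interval of Ptgs1 did not overlap that of Ptgs2, and by Tnf and by Folr2 the genes lay on opposite sides of 0 in all 6 libraries.

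Ptges (chromosome 2, 30889471–30929863, minus strand) encodes the inducible microsomal prostaglandin E synthase, which is often coupled to the enzyme of Ptgs2. Irf4-positive macrophages had 84.7, 41.4, 21.6, 55.8, 62.3 and 52.0 CPM in libraries 1 to 6, and Irf4-negative ones 331, 303, 165, 361, 365 and 164 CPM. The groups did not overlap. Pooled, 51.0 against 309 CPM gave a log2 ratio of -2.60 (-2.96 to -2.25), rank 15 from the lowest of 8709 features. It was -2.08 when Fcer1g was not counted. By Tnf, Ptges had 392 against 268 CPM, a log2 ratio of 0.55 (0.43–0.67), above 0 in 4 of 6 libraries. By Gata6 the ratio was 0.43 (0.33–0.52), above 0 in 6 of 6.

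Ptgis (chromosome 2, 167191805–167240604, minus strand) encodes prostacyclin synthase. Gata6-positive macrophages had 125, 151, 132, 95.8, 123 and 78.8 CPM in libraries 1 to 6, and Gata6-negative ones 64.1, 72.7, 62.6, 65.4, 62.6 and 60.4 CPM. No positive value was as low as a negative one. The pooled log2 ratio was 0.89 (0.71–1.06), short of 2-fold. By Folr2, 16 UMIs in positive cells gave 25.0 against 83.1 CPM, a log2 ratio of -1.73 (-2.54 to -1.03), with 0 UMIs in the 16 and 7 positive cells of libraries 1 and 2. By Irf4 it had 27.4 against 86.2 CPM, a log2 ratio of -1.66 (-2.17 to -1.18), lower in 6 of 6 libraries.

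Tbxas1 (chromosome 6, 38875404–39084585, plus strand) encodes thromboxane A synthase. Folr2-positive macrophages had 224, 94.2, 150.5, 175, 179 and 122 CPM in libraries 1 to 6, and Folr2-negative ones 48.6, 59.4, 104, 94.4, 68.2 and 113 CPM. Within each library the positive value was higher, by the least in library 6. The pooled log2 ratio was 1.15 (0.85–1.44), but short of 2-fold at 0.85 without library 1 and 0.76 with classes set after thinning. By Gata6 it was -0.48 (-0.69 to -0.27), below 0 in 5 of 6 libraries. By Tnf (-0.22, -0.50 to 0.06) and Irf4 (0.16, -0.13 to 0.44) the pooled intervals held 0, with 6 of 6 and 4 of 6 libraries below 0. Genes overlap Alox5ap, Ptgs1, Ptgis and Tbxas1 on the other strand and Ptges and Tbxas1 on the same strand, so some of their UMIs may belong to a neighbour.

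The Irf4-positive macrophages were divided further, after these values had been seen, by whether Csf1r and Adgre1 together reached 2 UMIs. In the 110 that did, Alox15 was at 131 CPM (105–162), against 159 CPM (151–167) in the Irf4-negative cells that did. Ptgs2 was at 344 CPM (300.0–392) against 542 CPM (528–556), and Ptgis at 55.5 CPM (38.9–76.8) against 95.02 CPM. In the 167 Irf4-positive cells that did not, Alox15 was at 11.4 CPM (4.91–22.4), Ptgs2 at 58.3 CPM (41.8–79.0) and Ptgis, with 1 UMI, at 1.42 CPM (0.0360–7.92). Ptges was low in both, at 80.1 CPM (59.8–105) and 24.2 CPM (14.1–38.7), where the Irf4-negative cells had 338 and 183 CPM. The 167 cells had 7989 CPM of Lyz2, 3053 CPM of the MHCII gene H2-Ab1, 6296 CPM of Retnla and 247 CPM of Siglecf, against 12384, 1364, 2381 and 29.3 CPM in the 110. The part of this mixture in the ratios by Irf4 was not tested.

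Since a cell could be positive for several split genes, as 131 were, levels were also taken in cells positive for exactly 1 gene and in the 1583 positive for none. In the order Tnf, Gata6, Folr2, Irf4 and none, Ptgs2 stood at 1481, 337, 117, 136 and 397 CPM and Ptges at 415, 342, 213, 45.7 and 272 CPM. Tnf alone had the highest value of both, and Irf4 alone the lowest of Ptges. Ptgis stood at 90.8, 121, 16.8, 16.2 and 72.0 CPM and Alox15 at 92.6, 193, 59.9, 43.7 and 129 CPM, both highest with Gata6 alone and low with Folr2 alone and Irf4 alone. Ltc4s stood at 84.6, 86.6, 158, 52.8 and 62.5 CPM and Tbxas1 at 66.1, 59.5, 156, 84.3 and 84.7 CPM, both highest with Folr2 alone, a class of 92 cells.

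**Figure D5:**
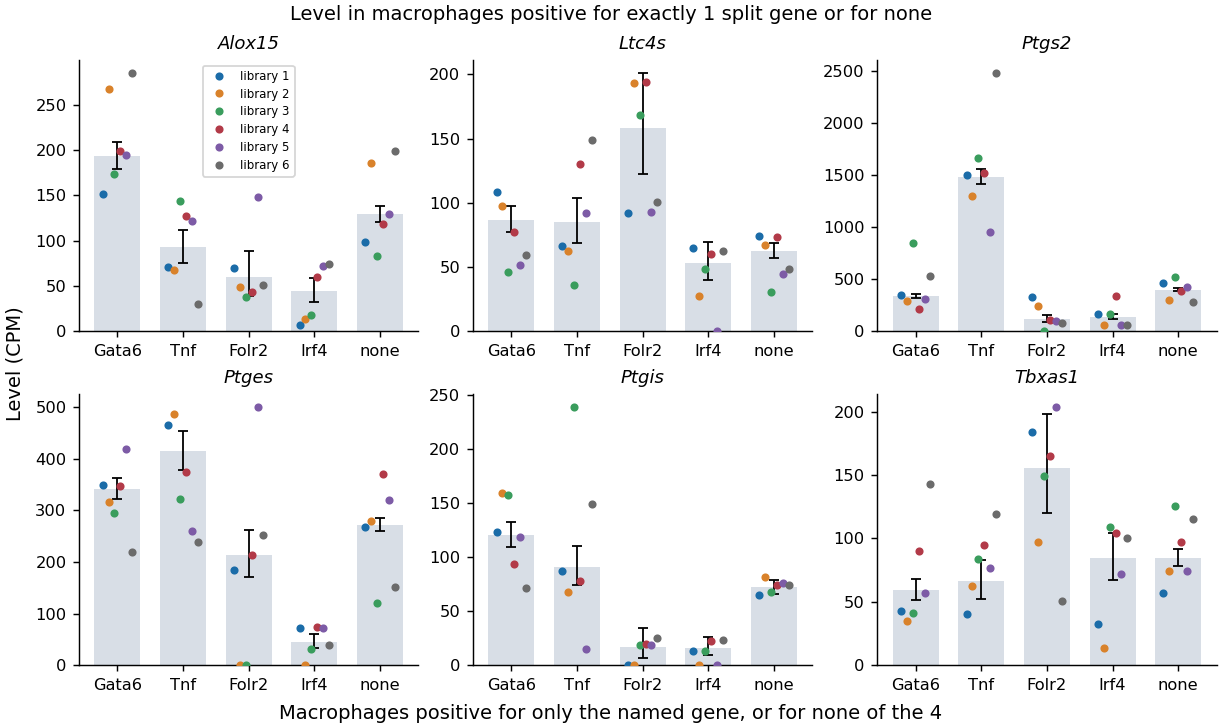
Level in CPM of 6 of the genes in macrophages positive for exactly 1 of Gata6, Tnf, Folr2 and Irf4 or for none, as bars pooled over libraries with exact Poisson 95% intervals and with the libraries as points (5 to 41 cells a library for Folr2 alone). Ptgs2 is at 1481 CPM with Tnf alone and Ptges at 45.7 CPM with Irf4 alone.

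Some transcripts were held by few cells. In the 2690 macrophages thinned to 1500 UMIs, the variance of UMIs per cell was 3.84 times the mean for Ptgs2, 2.81 times for Ptges and 1.99 times for Alox15, where counting an even level gives 1. It was 1.13 (Ptgs1) to 1.35 (Ltc4s) times for the other five with at least 200 UMIs. That multiple also rises with the mean at the same unevenness, and so does not rank the genes by evenness. The mean was 0.656 UMIs for Ptgs2, 0.562 for Alox5ap (1.19 times) and 0.116 for Ltc4s. No Ptgs2 UMI was seen in 74.5% of these cells, where an even level would leave 51.9%. The 269 cells with the most held 69.4% of Ptgs2 UMIs and 42.5% in the case of Alox5ap. That share was 74.1% for Ptges, 84.2% for Alox15, 86.5% for Ptgs1, 89.8% for Tbxas1 and 100% for Ltc4s and Ptgis. It also depends on the level, as Ltc4s and Ptgis were seen in only 261 and 246 of the cells, and so does not rank the genes by evenness. Pearson's r across these cells was between -0.04 (Ptgs1 and Ptgs2) and 0.10 (Ptgs2 and Ptges) over 28 pairs, all weak. Ptgs2 and Ptges were seen together in 185 cells, where independence would give 141. These cells share libraries, and the values are descriptions.

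The genes whose pattern was most like that of a member were found by Pearson's r of log2(CPM + 1) over 27 points, each a class positive for exactly 1 split gene or none in 1 library with at least 10 cells, among 5113 features of at least 20 CPM. For Ptgs2 they were the chemokine gene Cxcl2 (0.93), the inflammasome gene Nlrp3 (0.88) and the cytokine gene Il6 (0.87), which were also the first 3 by Spearman's rho. Ptges was most like Csf1r (0.94), Igf1 (0.93) and Rbpms (0.93), of which Csf1r is in the macrophage rule. Alox15 was most like Thbs1 (0.84) and Irak3 (0.83), and Ptgis most like Neurl3 (0.90), Ctla2a (0.89) and Itga6 (0.89). For Alox5ap they were App (0.89), Srgap2 (0.89) and Tfec (0.87), and for Ltc4s Zswim4 (0.92), Cyfip1 (0.92) and Cnot3 (0.92). For Ptgs1 they were Irf8 (0.86), Smim14 (0.85) and Dab2 (0.79), and for Tbxas1 Atp6v0a1 (0.82), Dnajb4 (0.80) and Atf6 (0.79). Of 24 such genes, 5 were among the first 3 by Spearman's rho. For the 3 named with Ltc4s, rho was 0.65, 0.52 and 0.63. Ltc4s, Ptges and Ptgis had 0 UMIs at a point with Irf4 alone, and the part of such points in r was not tested. Points of 1 library share depth and condition.

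Steps before and after the members were read from lists of 73 other pathway genes, of which 57 had a UMI in macrophages and 36 reached 5 CPM. Of the 36, 0 were past 2-fold higher and 3 lower by Gata6, beside 0.333% and 2.86% of all features. By Tnf 0 were higher and 2 lower, beside 0.907% and 3.35%. By Folr2 they were 6 and 2, beside 5.3% and 4.56%, and by Irf4 4 and 6, beside 5.28% and 5.42%. Among 13 phospholipases and related hydrolases, 6 reached 5 CPM. Pla2g4a, the cytosolic phospholipase A2 that frees arachidonic acid, had 135 CPM in macrophages, and 56.9 against 143 CPM by Irf4, a log2 ratio of -1.33, lower in 6 of 6 libraries. Pla2g7, which degrades platelet-activating factor, had 319 CPM, and 119 against 328 CPM by Folr2, a log2 ratio of -1.47 (-1.81 to -1.14). Pla2g15, a lysosomal phospholipase, had 33.5 CPM and no ratio past 2-fold. Daglb, a diacylglycerol lipase gene, had 62.8 against 14.4 CPM by Irf4 and 53.2 against 17.5 CPM by Folr2, higher in 6 of 6 libraries in both, and 5.30 against 24.7 CPM by Gata6, lower in 6 of 6.

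Of 11 genes that activate, place, lengthen or desaturate fatty acids, 10 reached 5 CPM. Acsl4, which activates arachidonic acid, had 212 CPM and Acsl5 46.0 CPM, with no ratio past 2-fold. Lpcat2, which makes platelet-activating factor, had 17.7 against 69.9 CPM by Irf4, a log2 ratio of -1.98 (-2.63 to -1.40), and 31.3 against 66.4 CPM by Folr2, lower in 6 of 6 libraries in both. Mboat7, which places arachidonic acid in phosphatidylinositol, had 14.8 against 35.3 CPM by Irf4. Acsl1 (59.4 against 21.2 CPM) and the desaturase gene Fads1 (15.6 against 5.18 CPM, 10 UMIs in positive cells) were past 2-fold higher by Folr2. The elongase gene Elovl5 was past 2-fold lower by Tnf (8.79 against 20.5 CPM). Of 8 genes of other lipoxygenases and of lipid peroxides and epoxides, Gpx4 (239 CPM) and Ephx1 (26.9 CPM) reached 5 CPM, and Ephx1 had 56.3 against 25.4 CPM by Folr2. Ephx2 had 2 UMIs.

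Further along the leukotriene branch, 6 of 11 genes reached 5 CPM. Abcc1, which exports leukotriene C4, had 236 CPM and Dpep2, a dipeptidase that acts on leukotriene D4, had 144 CPM, with no ratio past 2-fold. Mgst1, a microsomal glutathione transferase, had 17.0 against 76.6 CPM by Irf4, a log2 ratio of -2.17 (-2.84 to -1.58), lower in 6 of 6 libraries. Lta4h, which makes leukotriene B4, and Cyp4f18, which hydroxylates it, were past 2-fold higher by Irf4, with 22.9 against 10.7 CPM and 60.6 against 9.74 CPM. Cyp4f18 had 2.27 against 19.8 CPM by Gata6, and 105 CPM in B cells.

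Of 12 other prostanoid genes, 6 reached 5 CPM. Ptges3, the cytosolic prostaglandin E synthase and an Hsp90 co-chaperone, had 232 CPM in macrophages and 171 CPM in B cells, and Akr1b3 had 46.4 CPM in macrophages, with no ratio past 2-fold. Ptgr1, which inactivates prostaglandins and leukotriene B4, had 103 against 17.5 CPM by Folr2, a log2 ratio of 2.56 (2.14–2.96), higher in 6 of 6 libraries. Abcc4, which exports prostaglandins, was past 2-fold higher by Folr2 (32.8 against 13.6 CPM) and lower by Tnf (7.04 against 15.6 CPM) and Irf4 (6.65 against 15.4 CPM), with both directions among the libraries in each. Ptgds, the other prostaglandin D synthase gene, had 0 UMIs in macrophages.

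Of 9 prostanoid receptors, 3 reached 5 CPM. Ptgir, for prostacyclin, had 47.7 CPM in macrophages and 0.746 CPM in B cells. Ptger4 and Ptger2, for prostaglandin E, had 21.8 and 12.9 CPM in macrophages, and Ptger2 had 6.57 against 15.5 CPM by Gata6, a log2 ratio of -1.24 (-1.90 to -0.63), lower in 6 of 6 libraries. Of 9 receptors for leukotrienes, lipoxins and resolvins, 3 reached 5 CPM, namely Cmklr1 (70.0 CPM), Fpr2 (37.2 CPM) and Fpr1 (33.4 CPM). Fpr1 had 5.91 against 36.4 CPM by Irf4, a log2 ratio of -2.62 (-3.84 to -1.63), lower in 6 of 6 libraries.

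Other peritoneal cells make eicosanoids, and their markers were measured in the macrophages. Of 10 mast cell markers, 8 were under 1 CPM and Cpa3, Fcer1a and Ms4a2 were at 0. Their sum was 116 CPM in Gata6-positive and 57.6 CPM in Gata6-negative macrophages, mostly Hdc (115 and 53.3 CPM). Of 6 eosinophil markers, Prg2, Epx and Ear6 were at 0, and the sum was 143 CPM in Irf4-positive against 5.87 CPM in Irf4-negative macrophages, mostly Siglecf. Of 8 neutrophil markers 5 were under 1 CPM, and the sum was 24.4 to 102 CPM by library. Of 7 platelet markers, Gp9, Gp1bb and Tubb1 were at 0, while Pf4 had 2641 CPM. Of 10 mesothelial and stromal markers 6 were at 0, and the sum was 1.74 CPM. In Irf4-positive against Irf4-negative macrophages, dendritic cell markers summed to 61.4 and 37.3 CPM and T/NK cell markers to 283 and 71.8 CPM. The T/NK sum was mostly Il7r (276 and 54.7 CPM), while Cd3d was at 0 and 0.483 CPM and Cd3e at 0.739 and 0.322 CPM. The part of these cells in the ratios was not tested.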

How the data were processed

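Single-cell 5′ libraries (10x Genomics) were made from peritoneal cells of 6 conditions. The authors deposited 1 table of counts (UMIs of each gene in each barcode), not normalized, with reads aligned to mm10 (GRCm38) and joined over libraries. The submitters' processing notes name Cell Ranger 2.2 and Seurat 3.0. The table's 7760 barcode columns were not mapped to a sample. Following the study's methods, cells with under 500 genes, over 10% mitochondrial UMIs, or a ratio below 0.8 were removed. That ratio, which the methods describe by UMIs and genes, was taken here as log genes over log UMIs. Scrublet (scanpy 1.11.5) called 68 barcodes doublets (0.876%), which were kept. Counts were summed by class and divided by class UMIs (CPM), in Python 3.11.15 with scipy 1.17.1. Intervals were exact Poisson, Clopper-Pearson and conditional ones at 95%, for counting error only. Shares were also taken with cells thinned to 1500 UMIs. No test across samples was run. Ratio scripts were tested on simulated data. The members and lists were chosen with earlier results of these data known. Named were all members, the 3 genes most like each member of at least 200 macrophage UMIs, and from each pathway list the 3 highest in macrophages and up to 4 more past 2-fold. An item under this rule is not reported here. Alternatives were other cell filters, marker and split thresholds, thinning and single libraries left out.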

Additional observations from a re-analysis of the deposited data

Results flagged for a closer look

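Hpgds, which was lowest in macrophages among the cell classes, was highest in the 1277 cells that met no cell rule and enter none of the comparisons between macrophages. There it stood at 57.1 CPM (50.1–64.7), above the 0.699 CPM that a count of 0 allows, and by library at 53.3, 45.0, 43.9, 50.5, 65.0 and 68.0 CPM. Of macrophage genes these cells had 17.0 CPM of Csf1r, 12.1 CPM of Adgre1 and 1723 CPM of Lyz2, where macrophages had 515, 226 and 15081 CPM. Of B cell genes they had 302 CPM of Cd79a, 954 CPM of Ighm and 363 CPM of Ebf1, where B cells had 1266, 1798 and 535 CPM. Csf1r, Adgre1 and Cd79a are genes of the cell rules, so their lower levels follow from how these cells were set apart. Lyz2, Ighm and Ebf1 are in no rule. Their median depth was 2735 UMIs. The part of B cell transcripts in the Hpgds level was not tested.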

How the results depend on the processing

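Of 630 alternative values of the 40 log2 ratios, 541 lay within the interval of the reported value and 89 did not. No ratio past 2-fold changed direction, and 29 values, all of ratios short of 2-fold, had the opposite sign. Thinning moved 21 of 36 ratios and leaving Fcer1g out of the macrophage rule 13 of 40. Members higher by Gata6 numbered 1 with stricter split thresholds (0 reported), and members lower by Tnf 1 after thinning (0 reported). The member lower by Tnf was Alox5. It had 0 UMIs in the 83 thinned cells with 2 or more Tnf UMIs, among macrophages set before thinning. Members higher by Folr2 numbered 1 (2 reported) with at least 5 macrophage marker UMIs, with Fcer1g not counted, with cells positive for exactly 1 split gene and as a median over libraries, and between 1 and 2 with a library left out. After thinning 2 were higher, but they were Alox5 and Ptgs1, not Ltc4s and Tbxas1. Few UMIs lay behind Alox5 there. With macrophages set before thinning, it had 0 UMIs in the 46 thinned cells with 1 Folr2 UMI and 2 in the 14 with 2 or more. Members lower by Irf4 numbered 1 (4 reported) with Fcer1g not counted. The cause of these changes was not tested. With 1 CPM or 20 CPM in place of 5 CPM, the share of features was 0.667% or 0.0978% higher by Gata6, 6.61% or 0.958% lower by Tnf and 10.8% or 2.37% lower by Folr2, as more or fewer low features were counted. By Spearman's rho 5 of the 24 similar genes were kept. Hpgds in B cells was at 28.7 to 33.1 CPM with a library left out. No paired analysis was possible because no replicate number of the labels could be matched to the barcode columns and the values come from no test; ratios within each library are in the report. Few macrophage UMIs limit Alox5 (81) and Hpgds (24), and few cells (134) the Folr2-positive class.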

Other observations

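B cells were split by Irf4 after the Hpgds values had been seen. The 1373 B cells with an Irf4 UMI had 40.9 CPM of Hpgds (37.3–44.8) and the 1728 without had 16.7 CPM (14.1–19.7), a log2 ratio of 1.29 (1.02–1.57), higher in 6 of 6 libraries. The cells with an Irf4 UMI were deeper (median 7712 against 4342 UMIs). With every cell thinned to 1500 UMIs, Hpgds was seen in 5.99% (4.79–7.38%) and 1.53% (1.00–2.24%) of them. In B cells with few other markers the levels were 42.7 and 15.5 CPM, a log2 ratio of 1.46 (1.16–1.76), higher in 6 of 6 libraries. This split was chosen on these values and carries no test.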
